A study of Mus musculus with 36 samples.

Results

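Long intergenic noncoding RNAs (lincRNAs) are transcribed from their own promoters between protein-coding genes. The data here are those of lone lincRNA promoters in the adult mouse pancreas, that is, the transcription start sites (TSSs) of autosomal lincRNA genes that lie over 5 kb from the TSS of any protein-coding gene. Of 5854 lincRNA genes in the annotation 5209 were autosomal, and 4505 of these were lone, among 51229 autosomal genes of all kinds. Members were chosen by annotation only, without use of any peak, and 4024 of them have only a provisional name beginning with Gm or ending with Rik. A total of 361 have a transcript of another gene starting within 1 kb, so a peak at these cannot be assigned to 1 of the genes.

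Chromatin immunoprecipitation with sequencing (ChIP-Seq) was performed for H3K4me3 (K4me3) and H3K27me3 (K27me3) on the whole pancreas, and 6 mice are described here, 3 for each of 2 genotypes. Control mice are labelled Wildtype. EZH2ΔSET mice are labelled Mist1creERT/+EZH2[delta]SET. Mist1creERT is a tamoxifen-inducible Cre recombinase expressed from the Mist1 locus, which is active in acinar cells, so recombination was directed to acinar cells whereas chromatin came from all cells of the tissue. Cre removes exons 16 to 19 of Ezh2, which encode the catalytic SET domain of the K27me3 methyltransferase. All mice, control mice included, received tamoxifen by gavage at 2 to 4 months of age, and tissue was taken 22 days later. The control label names no Cre allele, while the study also allowed mice with Mist1creERT alone as controls, and which of these the 3 control mice were is not given in the sources used here. Should they lack the allele, its effect and that of Ezh2 deletion cannot be told apart. Each deposited list gives the position of the peaks of 1 mouse and 1 mark, with no read count or peak height. A TSS was called marked when a peak reached within 1 kb of it, and depth per library is unknown.

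K4me3 is placed around the TSS of genes that are active or poised for transcription, and is found in particular at CpG-rich DNA. K27me3 is placed by Polycomb repressive complex 2, whose catalytic subunit is EZH2 or its relative EZH1, and covers broad domains over silent developmental genes. A TSS with both marks is often called primed or bivalent. LincRNAs are on average less transcribed and more restricted to single tissues than protein-coding genes, and several act as hosts of small nucleolar RNAs or microRNAs.

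The promoter sequences of 6 members are given because each stands for a chromatin state described below. Each runs from 250 bases before to 50 bases after the TSS, 5′ to 3′ on the strand of the gene, from RefSeq's GRCm38.p6 genome (the mm10 build), with CpG dinucleotides in capitals. Malat1 (chr19:5802623-5802922, minus strand) and Snhg12 (chr4:132308373-132308672, plus strand) carried K4me3 in all 6 mice and K27me3 in none. Hotair (chr15:102947681-102947980, minus strand) carried K27me3 in all 6 mice, and Mir9-3hg (chr7:79499776-79500075, plus strand) carried it in 4 mice, both without K4me3. Gm26803 (chr13:83729533-83729832, minus strand) carried both marks in 5 mice. Gm40292 (chr5:39306870-39307169, plus strand) was marked by K27me3 in the 3 control mice and in no EZH2ΔSET mouse.
Malat1: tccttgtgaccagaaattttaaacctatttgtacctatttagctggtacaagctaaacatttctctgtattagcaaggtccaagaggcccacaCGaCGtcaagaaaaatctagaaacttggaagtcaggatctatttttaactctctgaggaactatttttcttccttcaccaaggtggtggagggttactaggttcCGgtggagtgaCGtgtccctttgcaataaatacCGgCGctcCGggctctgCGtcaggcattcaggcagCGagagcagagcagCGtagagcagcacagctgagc
Snhg12: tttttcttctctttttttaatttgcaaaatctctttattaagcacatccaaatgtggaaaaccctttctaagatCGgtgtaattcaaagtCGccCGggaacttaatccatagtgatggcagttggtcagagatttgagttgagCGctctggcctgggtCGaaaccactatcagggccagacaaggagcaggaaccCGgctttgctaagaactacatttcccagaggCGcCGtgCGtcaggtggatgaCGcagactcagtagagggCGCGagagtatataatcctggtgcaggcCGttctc
Hotair: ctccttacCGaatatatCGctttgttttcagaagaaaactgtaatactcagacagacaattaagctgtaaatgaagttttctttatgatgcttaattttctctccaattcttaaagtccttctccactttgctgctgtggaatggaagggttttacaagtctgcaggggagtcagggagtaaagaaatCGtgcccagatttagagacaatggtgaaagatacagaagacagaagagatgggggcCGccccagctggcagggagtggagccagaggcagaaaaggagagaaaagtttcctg
Mir9-3hg: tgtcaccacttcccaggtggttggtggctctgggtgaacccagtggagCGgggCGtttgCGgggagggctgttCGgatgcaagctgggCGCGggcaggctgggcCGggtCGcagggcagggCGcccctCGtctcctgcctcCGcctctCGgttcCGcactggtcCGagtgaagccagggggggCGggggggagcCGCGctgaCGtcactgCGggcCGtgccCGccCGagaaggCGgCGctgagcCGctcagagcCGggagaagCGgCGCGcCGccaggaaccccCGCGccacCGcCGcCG
Gm26803: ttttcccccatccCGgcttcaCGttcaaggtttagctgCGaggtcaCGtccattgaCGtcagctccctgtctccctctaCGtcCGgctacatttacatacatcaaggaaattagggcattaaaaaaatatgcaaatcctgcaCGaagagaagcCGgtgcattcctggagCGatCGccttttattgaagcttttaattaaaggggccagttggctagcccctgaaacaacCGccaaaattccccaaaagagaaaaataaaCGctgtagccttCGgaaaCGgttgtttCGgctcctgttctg
Gm40292: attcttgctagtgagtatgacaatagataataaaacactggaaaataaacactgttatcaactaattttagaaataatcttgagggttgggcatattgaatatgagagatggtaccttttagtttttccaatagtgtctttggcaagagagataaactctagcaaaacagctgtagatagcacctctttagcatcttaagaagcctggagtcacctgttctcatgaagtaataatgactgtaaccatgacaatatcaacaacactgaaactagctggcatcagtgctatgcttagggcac
The number of CpG dinucleotides was 10 in Malat1, 13 in Snhg12, 4 in Hotair, 35 in Mir9-3hg, 16 in Gm26803 and 0 in Gm40292. The promoter with the most CpG of these 6, that of Mir9-3hg, carried K27me3 and no K4me3. These 6 were chosen to show chromatin states, so their CpG order is no result. CpG-rich members in general carried K4me3 more often than K27me3, as given below.

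For 2 marked microRNA hosts, mature microRNAs matched by position in RefSeq are shown because they tell which products the promoters serve. Each is given with the seed, bases 2 to 8, in capitals. Mir17hg, marked by K4me3 in all 6 mice, holds miR-17-5p and miR-20a-5p, which share 1 seed, and miR-19a-3p and miR-19b-3p, which share another. Mir9-3hg, marked by K27me3, holds miR-9-5p, a microRNA of neural tissue.
miR-17-5p: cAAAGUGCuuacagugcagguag
miR-20a-5p: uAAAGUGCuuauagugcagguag
miR-19a-3p: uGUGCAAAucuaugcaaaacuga
miR-19b-3p: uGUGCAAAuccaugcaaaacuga
miR-9-5p: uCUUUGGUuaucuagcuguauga

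The lists held 17400 to 25886 K4me3 peaks and 21420 to 31274 K27me3 peaks per library. The tissue label was checked at the TSSs of cell type markers. Of 14 acinar genes 13 carried K4me3 in every mouse, against 4 to 6 of 7 duct genes, 1 to 2 of 9 islet genes, 0 to 3 of 6 fibroblast and stellate genes, 1 to 2 of 4 endothelial genes and 0 of 5 myeloid genes. T and B cell genes stood at 0 of 7 in 5 mice and at 5 of 7 in control mouse 2. Control mouse 2 stood apart in other ways: it had the fewest autosomal peaks for K4me3 (16912, against 23593 to 25220 in the others), and K27me3 at 17.4% of protein-coding TSSs, against 5.39% to 8.70%. On chromosome X, K27me3 peaks numbered 17 in EZH2ΔSET mouse 2, against 5637 to 7367 in the other 5 mice. The same mouse had K4me3 at 4 of 4 Y-linked genes and none at Xist, and the other 5 mice had the reverse. The labels give no sex, so a difference in sex is inferred from these peaks only.

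K4me3 was found at about 1 in 10 lone lincRNA promoters in nearly every mouse. In control mice 1 to 3 a K4me3 peak was present at 9.81%, 6.68% and 9.66% of members, and in EZH2ΔSET mice at 9.74%, 9.74% and 9.50%. Control mouse 2 was the lowest of all, and the other 5 mice overlapped without regard to genotype. The group means were 8.72% ± 1.76 and 9.66% ± 0.141 (SD, n = 3 each), a difference of 0.947 percentage points (exact two-sided permutation test, p = 0.7, and 0.875 after Benjamini-Hochberg adjustment over the 5 measures compared). Without control mouse 2 the difference was -0.0703 points, so its direction rests on that mouse. Since these replicates are separate mice by their labels, the spread includes that between animals.

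**Figure D1:**
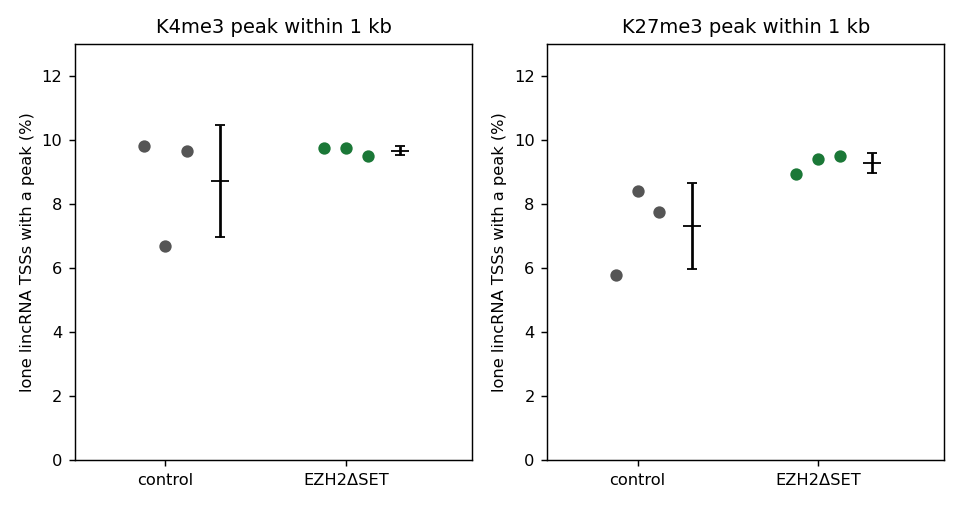
Share of the 4505 lone lincRNA TSSs (vertical axis, percent) with a K4me3 peak (left) or a K27me3 peak (right) within 1 kb, for 3 mice of each genotype (points), with the mean and SD as a bar beside them. K4me3 shares lie between 6.68% and 9.81%, with control mouse 2 lowest. For K27me3 the 3 EZH2ΔSET mice lie at 8.92% to 9.50% and the 3 control mice at 5.79% to 8.39%.

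K27me3 was found at 5.79% to 9.50% of these promoters, and more often in each EZH2ΔSET mouse than in any control mouse. Control mice had it at 5.79%, 8.39% and 7.75% of members, and EZH2ΔSET mice at 8.92%, 9.41% and 9.50%. The means were 7.31% ± 1.35 in control and 9.28% ± 0.311 in EZH2ΔSET tissue (SD, n = 3 each), a difference of 1.97 points. The exact permutation p was 0.1, the smallest that 3 mice against 3 can give, and 0.25 after adjustment over the 5 measures, so the design cannot pass a threshold of 0.05. The genotypes overlapped when peak midpoints were used (0.104 points, exact permutation p = 0.7), with equal numbers of only the widest peaks (0.962 points, exact permutation p = 0.6) and with K27me3 peaks of at least 10 kb (0.481 points, exact permutation p = 0.7). Without control mouse 1 the difference was 1.21 points. Whole pancreas also holds cells in which Cre is not active, and in such tissue a different number of cells with the mark and a different level of the mark per cell cannot be told apart.

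Set beside protein-coding TSSs of the same mouse, the ratio of the members' share to theirs was 1.07, 0.481 and 1.03 for K27me3 in control and 1.18, 1.08 and 1.11 in EZH2ΔSET mice. The difference was 0.262 (exact permutation p = 0.1, adjusted p = 0.25), and without control mouse 2 it was 0.0711. The same ratio for K4me3 was 0.150 in control and 0.166 in EZH2ΔSET tissue on average (difference 0.0155, exact permutation p = 0.6, adjusted p = 0.875), and its difference was -0.000974 without control mouse 2 and -0.000579 with equal numbers of only the widest peaks.

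The share of the autosomes covered by K27me3 also differed between mice. Autosomal bases within 1 kb of a K27me3 peak made up 8.42%, 7.14% and 8.73% in control and 8.97%, 11.1% and 8.95% in EZH2ΔSET mice, and were thus again higher in each EZH2ΔSET mouse. The share of members divided by this value was 0.688, 1.18 and 0.887 in control and 0.995, 0.849 and 1.06 in EZH2ΔSET mice. On that ratio, a measure added after the data were seen, the groups overlapped and the difference was 0.0515 (exact permutation p = 0.9). Without EZH2ΔSET mouse 2, which has few X-linked K27me3 peaks, the share of members in EZH2ΔSET tissue was 1.90 points above control (n = 2 against 3, exact permutation p = 0.2).

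**Figure D2:**
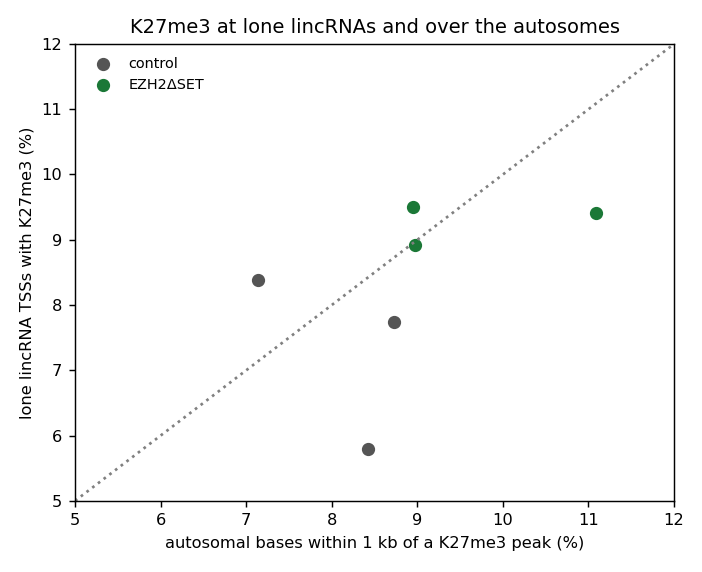
Share of lone lincRNA TSSs with K27me3 (vertical axis, percent) against the share of autosomal bases within 1 kb of a K27me3 peak of the same library (horizontal axis, percent), 1 point per mouse, coloured by genotype. The dotted line marks equal shares, and the 6 mice have ratios from 0.688 to 1.18.

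Set against the autosomes, K4me3 was found at members 2.51 to 2.69 times as often as over autosomal bases (median 2.61), and at protein-coding TSSs 15.2 to 21.3 times as often. For K27me3 the ratio was 0.688 to 1.18 at members (median 0.941) and 0.640 to 2.44 at protein-coding TSSs. At the resolution of these peaks, members thus carried K4me3 more often than the autosomes in general, and K27me3 about as often.

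K4me3 was far less frequent at lone lincRNAs than near protein-coding genes, and for K27me3 control mouse 2 differed from the other mice. In every mouse the share with K4me3 was lower at lone lincRNAs than at the 704 autosomal lincRNAs within 5 kb of a protein-coding TSS (difference -42.4 ± 0.468 points, SD, 6 mice, exact sign-flip permutation p = 0.03125, the smallest possible). Of these 704, 380 lie up to 1 kb from a protein-coding TSS, so the peak of that promoter can be counted as theirs. The difference and its p include such peaks and were thus in part fixed by how the classes were defined. Against the 20807 protein-coding TSSs the difference was -48.9 ± 0.677 points with the same p. K27me3 differed by -2.15 ± 5.08 points from lincRNAs within 5 kb (lower in 4 of 6 mice, exact permutation p = 0.344). That value was -12.5 points in control mouse 2 and averaged -0.0770 points in the other 5 mice. Against protein-coding TSSs K27me3 differed by -0.900 ± 4.02 points from protein-coding TSSs (lower in 1 of 6 mice, exact permutation p = 1.0). This difference was -9.06 points in control mouse 2 and 0.240 to 1.39 points in the other 5 mice.

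Among all lincRNAs the mean share with K4me3 over the 6 mice was 74.9% ± 1.05 for TSSs up to 1 kb from a protein-coding TSS and 24.3% ± 2.09 from 1 to 5 kb. Among the members it was 17.7% ± 2.58 from 5 to 10 kb, 13.7% ± 1.46 from 10 to 20 kb, 12.8% ± 1.30 from 20 to 50 kb, 9.84% ± 1.497 from 50 to 100 kb and 4.27% ± 0.839 beyond 100 kb. The mean was lower in each more distant class. For K27me3 the members' values were 9.40%, 8.16%, 6.43%, 8.04% and 9.26% in the same order, with SDs of 1.96 to 4.49, and showed no such order.

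**Figure D3:**
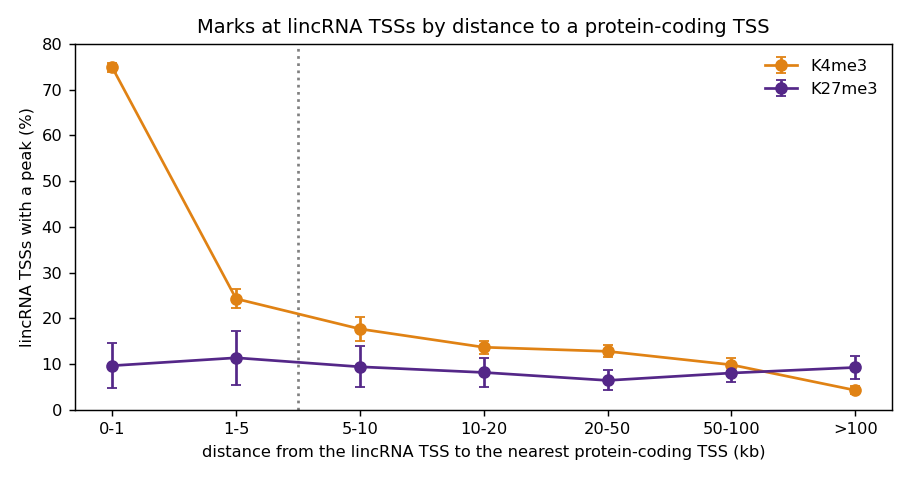
Share of autosomal lincRNA TSSs with a peak (vertical axis, percent) by distance to the nearest protein-coding TSS (horizontal axis, kb), as mean and SD over 6 mice. Classes to the right of the dotted line are lone lincRNAs, whose K4me3 share goes from 17.7% to 4.27% with distance while that of K27me3 stays between 6.43% and 9.40%.

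Where a lone lincRNA promoter carried K4me3, the peak was narrower than at a protein-coding gene. The median width at marked members was 1202.5, 1322 and 1281 bp in control and 1334, 1302 and 1237.5 bp in EZH2ΔSET mice, against 2120 to 2305 bp at marked protein-coding TSSs. The mean difference was -955 ± 82.7 bp (SD, lower in 6 of 6 mice, exact sign-flip permutation p = 0.03125). The TSS itself lay inside the peak for 70.2% to 73.6% of marked members and for 92.1% to 93.4% of marked protein-coding genes. The annotated start of a lincRNA was thus more often beside the peak than that of a protein-coding gene.

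No K27me3 peak of these lists is under 5001 bp, so K27me3 domains were wider than most K4me3 peaks by construction. Their median width at marked members was 6375, 11460 and 7703 bp in control and 8218, 8199.5 and 8056 bp in EZH2ΔSET mice. Control mouse 1 had the narrowest and control mouse 2 the widest, and the EZH2ΔSET mice lay between them. The TSS lay inside the domain for 72.4% to 84.9% of members with K27me3.

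K4me3 calls recurred across mice more often than K27me3 calls, and neither recurred in full. Of the members with K4me3 in any mouse 44.3% had it in all 6, against 5.11% of those with K27me3 in any mouse. Over all autosomal gene TSSs these shares were 81.7% and 7.38%, so the order of the marks was general and members recurred less often than genes overall. K4me3 was found in all 6 mice at 243 members, or 5.39% of them, whereas 27.6% of all autosomal gene TSSs were so marked. It was found in at least 5 mice at 370 members (29.8% of all TSSs), in at least 1 mouse at 549 and in 1 mouse only at 75, and 3956 members had none in any mouse (66.3% of all autosomal gene TSSs had none). K27me3 was found in at least 1 mouse at 958 members, in 1 mouse only at 435, in at least 5 mice at 137 (3.04%) and in all 6 mice at 49 (1.09%). Among all autosomal gene TSSs 3.67% had K27me3 in at least 5 mice and 1.66% in all 6, and 77.5% had none in any, against 3547 (78.7%) of the members. The members' shares were thus below those of all genes for both marks, by more for K4me3.

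**Figure D4:**
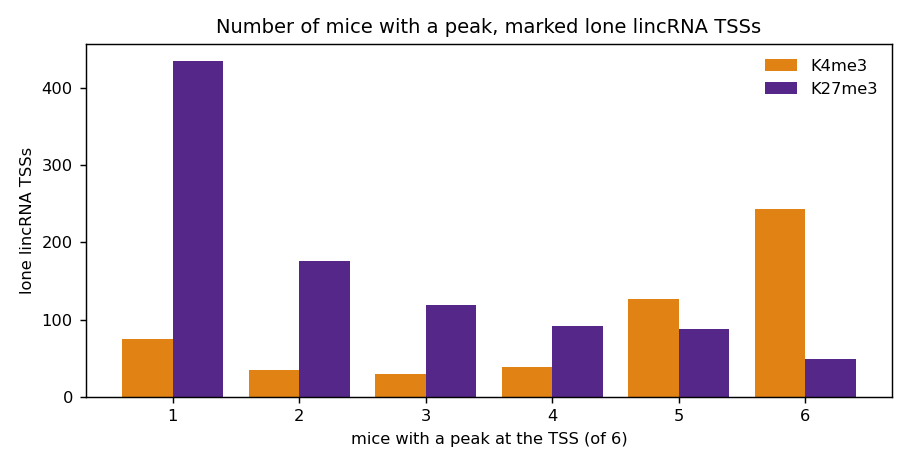
Number of lone lincRNA TSSs (vertical axis) by the number of mice, of 6, that have a peak there (horizontal axis), for K4me3 and K27me3. K4me3 has its highest bar at 6 mice (243 members), and K27me3 at 1 mouse (435 members).

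With a call in any mouse counted, each mark was missing at members with the other about as often as at members in general. Of the 243 members with K4me3 in all mice, 200 (82.3%) had no K27me3 in any mouse, against 78.7% of all members, while 41 had it in 1 to 4 mice and 2 in 5 or more. Of the 137 members with K27me3 in at least 5 mice, 121 (88.3%) had no K4me3 in any mouse, against 87.8% of all members. Recurrent calls of both marks met less often. K27me3 in at least 5 mice was found at 2 of the 243 members, against 3.04% of all members. K4me3 in all mice was found at 2 of the 137 members, against 5.39% of all members. This overlap was not tested. Neither mark was found in any mouse at 3086 members (68.5%), against 49.3% of all autosomal gene TSSs.

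Members with K4me3 in all mice differed in sequence from the rest. In the 1001 bases centred on the TSS, the median GC content was 52.1% and the median ratio of observed to expected CpG 0.491, against 46.0% and 0.216 for all members and 45.9% and 0.206 for the 3086 members with neither mark. A window was called CpG-rich when its GC content was above 50% and its CpG ratio above 0.6. CpG-rich windows made up 29.2% (71 of 243) of members with K4me3 in all mice, 4.38% (6 of 137) of those with K27me3 in at least 5 mice, 0.389% (12 of 3086) of those with neither mark and 2.38% (107 of 4505) of all members. They made up 45.7% of protein-coding windows, 75.2% of those with K4me3 in all mice and 33.8% of lincRNAs within 5 kb.

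Read the other way, the 107 CpG-rich members carried K4me3 in 73.2% ± 3.27 of cases and K27me3 in 13.4% ± 10.5 (mean and SD over 6 mice). The 4398 other members carried K4me3 in 7.63% ± 1.19 and K27me3 in 8.17% ± 1.36. For protein-coding TSSs, K4me3 was found at 91.7% ± 0.704 of CpG-rich windows and at 29.8% ± 0.617 of the others. Their K27me3 stood at 6.49% ± 5.93 of CpG-rich windows and 11.5% ± 2.85 of the others. Without control mouse 2, which had 18.3% and 16.7%, these means were 4.12% ± 1.37 and 10.4% ± 1.38. Even so, 172 of the 243 members with K4me3 in all mice were not CpG-rich. K27me3 at CpG-rich members was 33.6% in control mouse 2 and 2.80% to 12.1% in the other 5 mice. Without that mouse its mean was 9.35% ± 3.80 at CpG-rich and 8.25% ± 1.51 at other members, so most of the difference rested on control mouse 2.

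Short motifs in the 300-base promoters were counted on both strands, each motif on its own and without regard to overlap with another. GGGCGG, the letters of the GC box, was present in 40.7% of members with K4me3 in all mice, 10.2% of those with K27me3 in at least 5 mice, 5.51% of those with neither mark and 23.6% of all autosomal gene promoters. CCGGAAG, a core of ETS factor motifs, was present in 11.9%, 2.19%, 2.88% and 6.11% of these groups. Of these groups, TATAAA was least frequent in members with K4me3 in all mice, with 9.47%, 12.4%, 18.3% and 17.2%. In members with K4me3 in 1 to 5 mice it was present in 14.4%. CCAAT was present in 39.5%, 36.5%, 38.0% and 38.2%, CAGCTG, an E-box, in 14.4%, 20.4%, 18.9% and 15.3%, and TGACTCA, an AP-1 sequence, in 6.17%, 4.38%, 7.55% and 4.81%. GGGCGG was found in the printed promoters of Hotair and Mir9-3hg, and CAGCTG in those of Malat1, Hotair and Gm40292. A match is a description of the letters and not of a bound factor.

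Of 82 characterised lincRNAs that were listed, 27 were members, 7 lay within 5 kb of a protein-coding TSS, 33 were annotated as another kind of gene, 14 were not in the annotation and 1 was not autosomal. Of these 27 members, 11 carried K4me3 in all 6 mice, 4 in 1 to 5 mice, 3 carried K27me3 in all 6 mice, 3 carried it in 3 to 5 mice without K4me3, and 6 had neither mark. K4me3 in all 6 mice was found at 5.39% of all members and 27.6% of all autosomal gene TSSs, and K27me3 at 1.09% and 1.66%. Neither mark was found at 68.5% and 49.3%. The list holds RNAs known by name and does not stand for the 4505 members.

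**Figure D5:**
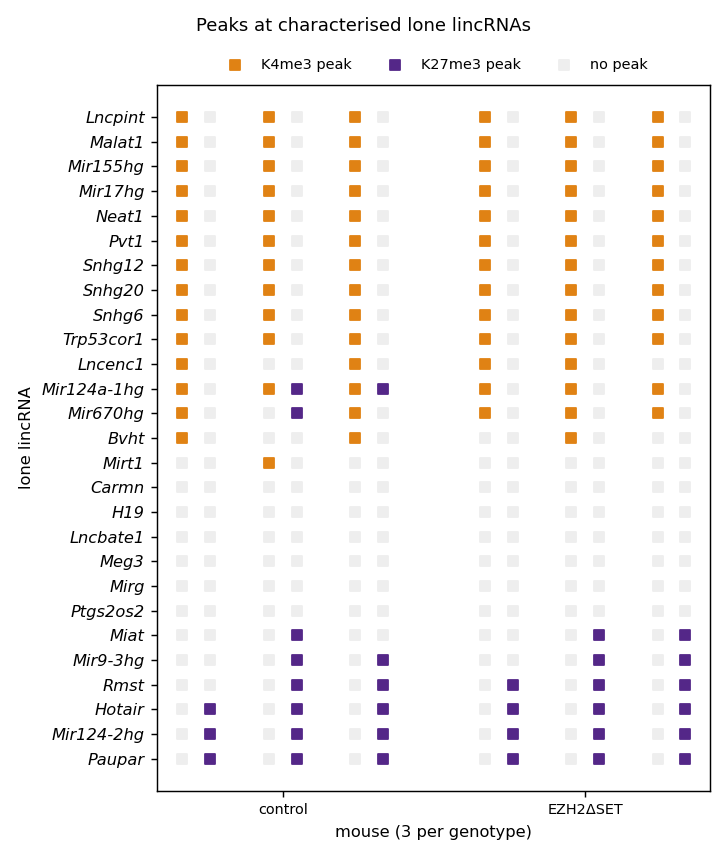
K4me3 and K27me3 calls at the TSS of the 27 characterised lone lincRNAs (rows) in each of the 6 mice (a pair of columns for each mouse, K4me3 on the left and K27me3 on the right, 3 mice per genotype in replicate order), with a filled square for a peak and a pale square for none. The upper 10 have K4me3 in every mouse and no K27me3, and the lowest 3 have K27me3 in every mouse and no K4me3.

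Neat1, Malat1 and Lncpint had the widest K4me3 of the characterised members. They are, like Snhg12, Mir17hg, Pvt1, Hotair and Miat, among the 361 members with another gene's start within 1 kb (18.9% of members with K4me3 in all mice and 8.01% of all members are). By position alone, the peaks given for these genes cannot be assigned to 1 record. The other start is that of a small nucleolar RNA at Snhg12, a microRNA at Mir17hg and a record typed misc_RNA at Pvt1, Hotair and Miat. At Neat1 the types are antisense and misc_RNA, at Malat1 TEC and at Lncpint processed transcript. Whether any such record has a promoter of its own was not tested. At Neat1 (chr19:5824708-5845478, minus strand), the scaffold of paraspeckles, widths were 11551, 9202 and 11297 bp in control and 10725, 13462 and 11402 bp in EZH2ΔSET mice. At Malat1 (chr19:5795690-5802672), an RNA of nuclear speckles, they were 8835, 8698 and 8869 bp in control and 9250, 9629 and 8849 bp in EZH2ΔSET mice. Lncpint (chr6:31082565-31220488), a p53-induced RNA, had 9446, 7105 and 8184 bp in control and 7543, 8002 and 7920 bp in EZH2ΔSET mice. At each of these 3 genes the ranges of both genotypes overlapped.

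The host genes and p53 or Myc neighbours had narrower K4me3. Host genes of small nucleolar RNAs were all marked in 6 mice, with median widths of 2451 bp at Snhg6, 2061 bp at Snhg12 and 1938 bp at Snhg20. Mir17hg (chr14:115042879-115046727) had 932 to 1227 bp with a median of 1061 bp. Mir155hg, host of a microRNA known from activated immune cells, had 1306 to 1812 bp. T and B cell genes were marked in control mouse 2 and Ptprc, a gene of all leukocytes, in control mouse 2 and EZH2ΔSET mouse 2, and the part of such cells in the mark was not tested. Trp53cor1, a p53 target 11.8 kb from Cdkn1a, had 1754 to 2527 bp with a median of 1847 bp, and Pvt1, 50.6 kb from Myc, had 2044 to 2833 bp with a median of 2505 bp. Mir124a-1hg, a host of the neural miR-124, had K4me3 of 501 to 1170 bp in all mice, and K27me3 of 40162 bp in control mouse 2 and 6261 bp in control mouse 3.

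Other characterised members had K4me3 in only some of the mice, or neither mark. Mir670hg carried K4me3 of 1166 to 1492 bp in 5 mice and, in control mouse 2 alone, a K27me3 peak of 59169 bp in its place. Lncenc1, described in embryonic stem cells, carried K4me3 in 4 mice at 501 to 920 bp and Bvht, described in heart development, in 3 mice at 659 to 736 bp, in each case not in control mouse 2. Mirt1 carried it in control mouse 2 only (626 bp), the mouse that had K4me3 at 5 of 7 T and B cell genes, and the part of such cells in this mark was not tested. The imprinted RNAs H19, Meg3 and Mirg, the smooth muscle RNA Carmn, Ptgs2os2 and Lncbate1 had no peak of either mark in any mouse.

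A further 6 characterised members carried K27me3 without K4me3, 2 of them near a developmental transcription factor. Hotair (chr15:102944062-102947730), 6.70 kb from Hoxc11 in the HoxC cluster, lay under peaks of 12495, 259610 and 40884 bp in control and 104606, 78457 and 78416 bp in EZH2ΔSET mice. Paupar (chr2:105657862-105661343), 7.56 kb from Pax6, had 6283, 54589 and 17344 bp in control and 23903, 23524 and 40636 bp in EZH2ΔSET mice. Control mouse 1 was the narrowest and control mouse 2 the widest at both genes. Mir124-2hg (chr3:17789921-17808970) had 11615 to 34703 bp, narrowest in control mouse 1. Mir9-3hg (chr7:79500026-79534403) had none in control mouse 1 and EZH2ΔSET mouse 1 and 14635 to 38233 bp in the 4 others. Rmst, a neural RNA, had none in control mouse 1 and 6267 to 14860 bp in the others, and Miat had K27me3 in 3 mice, at 6425 to 14443 bp. Hotair, Paupar, Mir124-2hg and Rmst thus had K27me3 in all 3 EZH2ΔSET mice.

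Beyond the characterised list, the widest K4me3 among members marked in all mice was at 9030622O22Rik (chr2:147944740-148040203), whose TSS lies 5.26 kb from Foxa2, a transcription factor of endodermal tissue. Its widths were 13397, 2747 and 13620 bp in control and 14770, 15154 and 14499 bp in EZH2ΔSET mice. In every mouse but control mouse 2 the same peak also reached the TSS of Foxa2, so these widths include the mark of that promoter. Control mouse 2 had separate K4me3 peaks at the TSSs and alone had K27me3 at the lincRNA, of 35495 bp. Gm43525 (chr3:20308407-20309915), 32.7 kb from the acinar gene Cpb1, had 10654, 8223 and 11044 bp in control and 13892, 11440 and 11440 bp in EZH2ΔSET mice, and no K27me3. At both members every EZH2ΔSET value was above every control value, and widths of single members were not tested. At the other members named for the widest K4me3 the genotypes overlapped, as did the median K4me3 widths over all marked members.

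Next were 6720427I07Rik with 3298 to 8544 bp, and E130102H24Rik and 0610043K17Rik, which had peaks of equal width in each mouse, of 5576 to 7283 bp. Gm45083 had 3660 to 5570 bp and 1810044K17Rik 3167 to 5802 bp, both lowest in control mouse 2. The lists carry no height, so width is the only size these data give.

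Several members with K27me3 in all mice had a transcription factor of development as their nearest protein-coding gene. These included Gm29478, 22.1 kb from Zic4 (46969 to 75311 bp), Gm28340, 28.8 kb from Tfap2b (15029 to 63089 bp), Gm11535, 16.8 kb from Hoxb13 (9937 to 73353 bp), Gm26872, 12.8 kb from Barhl2 (5001 to 63297 bp) and 3110006O06Rik, 18.8 kb from Nr2f1 (12985 to 59422 bp). Gm34030 and 5033428I22Rik, both near Hand2, had peaks of equal width in 5 of 6 mice, up to 60487 bp. The narrowest domain of all 7 was in control mouse 1 except at Gm29478. Others did not, among them Mir124-2hg, whose nearest such gene is Cypt12 at 158 kb, and Gm36161. Gm36161 had a median of 61166 bp, but 98.4% of its 31-base words within 1 kb of the TSS occur elsewhere in the genome, so its reads may belong to another copy.

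By nearest gene, 18.2% (25 of 137) of members with K27me3 in at least 5 mice had a protein-coding neighbour from a list of developmental regulator families (Hox, Sox, Fox, Pax and others). The share was 6.33% (52 of 821) with K27me3 in 1 to 4 mice, 2.96% (105 of 3547) with none, 3.704% (9 of 243) with K4me3 in all mice and 4.04% (182 of 4505) over all members. In each mouse the neighbour was compared too. K27me3 was found at the nearest protein-coding TSS for 29.5% of members with K27me3 and 10.005% of those without, a difference of 19.5 ± 4.77 points (SD, range 11.2 to 24.2, higher in 6 of 6 mice, exact sign-flip permutation p = 0.03125). Both TSSs lay under 1 and the same peak for 5 to 66 members by mouse. Most members with K27me3 thus had an unmarked neighbour.

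Both marks at 1 TSS were found at under 1% of lone lincRNAs in each mouse. Such a call needs a peak of each mark within 1 kb of the TSS, and the peaks need not overlap. In whole pancreas, both marks in the same cells and each mark in different cells cannot be told apart. The count per mouse was 6, 41 and 16 in control and 14, 16 and 22 in EZH2ΔSET tissue. Control mouse 2 had the most and control mouse 1 the fewest. The share was 0.133% to 0.910% of members, against 0.394% to 7.26% of protein-coding TSSs, and lower in each mouse, as was the members' share with K4me3. The mean share was 0.466% ± 0.4002 in control and 0.385% ± 0.0924 in EZH2ΔSET mice (SD, n = 3 each), a difference of -0.0814 points (exact permutation p = 0.9, adjusted p = 0.9) that was 0.141 points without control mouse 2. Of 61 members (1.35%) with both marks in any mouse, 36 had them in 1 mouse only, 31 of these in control mouse 2, and 15 (0.333%) had them in at least 3 mice. Over all autosomal gene TSSs 4.50% had both marks in any mouse and 0.607% in at least 3.

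Among the 4 members with both marks in 5 mice was Gm26803 (chr13:83723442-83729582), 76.7 kb from Mef2c, a transcription factor of muscle, heart and neurons. Its K4me3 was 2107, 1166 and 2043 bp wide in control and 1616, 1994 and 2013 bp in EZH2ΔSET mice, and it had K27me3 of 22978 to 57230 bp in every mouse but control mouse 1. 3222401L13Rik, near the protocadherin gene Pcdhga1, had both in the same 5 mice. Gm20754 near Slitrk3 and Gm47101 near Nts also had both in 5 mice, all but control mouse 2, which had no K4me3 there. At Gm20754 and Gm47101 the K4me3 peaks were at or near the shortest length the lists hold, 501 bp at Gm47101 in all 5 mice. Gm32351, Gm9916, Gm30382, Gm35040, Gm26700 and E330013P04Rik had both in 4 mice. Gm26700 (chr10:92162103-92164690) lies inside Rmst (chr10:92071037-92165170) on the other strand and lay under the same K27me3 widths as Rmst, but unlike the TSS of Rmst it also had K4me3, of 758 to 920 bp, in 5 mice. A transcript of another lincRNA gene starts within 1 kb of Gm26700, so this K4me3 may belong to either gene.

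K4me3 was present in all 3 mice of a genotype at 246 members in control and 389 in EZH2ΔSET tissue, where 27.9% and 29.9% of all autosomal gene TSSs were so marked. Without control mouse 2 the control count was 406. Of these members 243 were on both lists, 98.8% of the control list and 62.5% of the EZH2ΔSET list, against 98.9% and 92.0% over all autosomal gene TSSs. For K27me3 the counts were 59 and 186, against 2.0% and 4.38% of all TSSs. The control count was 138 without control mouse 1, 153 without control mouse 2 and 70 without control mouse 3. Both lists shared 49 members, 83.1% of the control list and 26.3% of the EZH2ΔSET list, against 82.8% and 37.9% over all autosomal gene TSSs. Both marks in all 3 mice were found at 0 members in control and 11 in EZH2ΔSET tissue, against 0.0761% and 0.273% of all TSSs. The control value was 5 without control mouse 1 and 4 without control mouse 2.

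Members that had a peak in all 3 mice of 1 genotype and in none of the other were few. For K27me3, 16 members (0.355% of all members) had it in EZH2ΔSET and not in control mice, as did 0.217% of all autosomal gene TSSs, and 2 had the reverse (0.0293% of all TSSs). For K4me3 there were 2 members in EZH2ΔSET and not control mice (0.0742% of all TSSs) and 0 the reverse (0.0234%). The counts depended on which mice were used. With any 1 mouse left out they were 32 to 55 for K27me3 and 3 to 15 for K4me3 in either direction, and a pattern needs fewer calls when 1 mouse is left out. With 3 mice against 3, no single TSS can pass a test at 0.05.

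Among the members named with K27me3 in EZH2ΔSET mice only, Gm30524 (chr6:140955609-141044134) had 35063, 21160 and 16882 bp. Gm49457 (chr15:72161346-72287314), 127 kb from the collagen gene Col22a1, had 16802, 34114 and 5001 bp. Gm43293 (chr6:31702245-31706990), 143 kb from Podxl, a sialomucin gene, had 14510, 12219 and 22488 bp. None of these had K4me3 in any mouse. Gm49714 had 8065, 13267 and 10587 bp. 4930469B13Rik had 11732, 11487 and 10919 bp, but most of its 31-base words within 1 kb of the TSS occur elsewhere in the genome. A width of 5001 bp is the shortest in the K27me3 lists.

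The reverse pattern, K27me3 in the 3 control mice and none of the EZH2ΔSET mice, was met by Gm40292 (chr5:39307120-39313295) and Gm40293 (chr5:39253950-39307084). They start head to head and had peaks of equal width, 8280, 6329 and 7076 bp in the 3 control mice, so they count as 1 region. The promoter of Gm40292 printed above has no CpG dinucleotide.

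K4me3 in EZH2ΔSET and not control mice was found at 6030407O03Rik (chr1:73618088-73864466), 63.8 kb from Tns1, a gene of focal adhesions, with 1198, 883 and 900 bp. The other such member was 4930553P18Rik (chr6:86004380-86009355), 11.8 kb from Figla, a transcription factor of oocytes, with 633, 764 and 780 bp, where control mouse 2 had K27me3 of 5001 bp. All 6 of these K4me3 peaks were below the median width at marked members of their mouse.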

How the data were processed

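K4me3 and K27me3 ChIP-Seq peaks of 6 mice were used, 1 list per mouse and mark (12 libraries). Samples of further genotypes were not used here. The submitters' processing notes name FastQC, Bowtie2, HOMER and mm10, and the methods name HOMER findPeaks in histone mode against input. Versions are not given in the sources used here. In the deposited files the score is 1 for each peak and was not used. Read counts and heights were not used here, so depth is unknown. K4me3 peaks are at least 501 bp and K27me3 peaks at least 5001 bp wide.

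TSSs were the 5′ ends of GENCODE M21 gene records. The members and lists were chosen with earlier results of these data known. Named members were those on a list of characterised lincRNAs, and up to 10 with the widest K4me3, the most mice with K27me3 or the most with both marks, and up to 5 per mark and direction of the contrast. Tests planned over more mice were run on these 6, and the limits for calls shared between mice (K4me3 in all 6 mice, K27me3 in at least 5, both in at least 3) were set to that number after the data were seen. Shares per mouse were tested by exact permutation (two-sided), with Benjamini-Hochberg adjustment over 5 tests. Within-mouse differences were compared by exact two-sided sign flips. The code was tested on simulated peaks. Equal numbers of the widest peaks were drawn with ties broken at random under a fixed seed. The tools were SciPy 1.17.1, pandas 2.3.3, pyfaidx 0.9.0.4, NumPy 2.4.6 and matplotlib 3.10.9 under Python 3.11.15. Input libraries were not analysed here. The ratio to the autosomal share, the split by X-linked peaks and the alternatives for neighbouring genes were chosen after seeing the data.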

Additional observations from a re-analysis of the deposited data

How the results depend on the processing

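Contrasts of per-mouse shares could not reach 0.05 with 3 mice against 3, so their p-values say nothing of stability. The within-mouse differences in K4me3 width and in K27me3 at the neighbour kept their direction under each alternative run for them. The K27me3 difference, EZH2ΔSET less control, stayed above 0 under each alternative, but the genotypes overlapped (exact permutation p = 0.6 to 0.7) with peak midpoints, the widest peaks and minimum widths. It was 1.84 and 2.85 points with windows of 500 bp and 3 kb, 0.104 with peak midpoints, 2.19 and 2.94 for members over 10 and 50 kb from a protein-coding TSS, 2.16 with all transcript TSSs, 0.962 with the widest peaks, 0.481 with peaks of at least 1 kb (K4me3) and 10 kb (K27me3), 1.95 for the 4173 members with no other gene record starting within 1 kb (transcript starts not considered), and 1.21 to 2.51 with 1 mouse left out. With the replicate number as a block it was 1.97 (exact permutation p = 0.25, adjusted p = 0.625). The replicate numbers did not pair the mice (1 of 3 same-numbered pairs for K4me3 and 0 of 3 for K27me3 correlated above 0.1), and with 3 blocks no p under 0.25 is possible, so no call could change.

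Small contrasts changed sign, and the cause was not tested. The K4me3 contrast was -0.185 points when the widest peaks were taken in equal number, and -0.0335 as the autosomal ratio, its ratio to protein-coding genes was -0.000579 with the widest peaks, and the contrast for both marks was 0.0738 beyond 50 kb. With 1 mouse left out the ranges were -0.0703 to 1.49 for K4me3, -0.248 to 0.141 for both marks, -0.000974 to 0.0241 and 0.0711 to 0.368 for the K4me3 and K27me3 ratios to protein-coding genes, -987 to -942 bp for the width difference, and 18.5 to 21.1 points for K27me3 at the neighbour. The last pair had an exact permutation p of 0.0625 each time, the smallest that 5 mice can give.

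Several counts moved by over 1.5 times. Requiring 2 of 3 mice gave 409 control members with K4me3, 243 control and 377 EZH2ΔSET members with K27me3, and 9 control members with both. The 3 kb window gave 93 control members with K27me3 and 6 with both. The widest peaks gave 258 EZH2ΔSET members with K4me3, 38 control members with K27me3 and 1 EZH2ΔSET member with both. With 1 mouse left out the control counts were 247 to 406 for K4me3, 70 to 153 for K27me3 and 0 to 5 for both. Members present in 1 genotype and absent from the other, in either direction, numbered 15 (K4me3) and 104 (K27me3) with at least 2 of 3 mice, 4 and 11 with the widest peaks, 6 for K4me3 at 3 kb, and 3 to 15 and 32 to 55 with 1 mouse left out. With no read counts, a difference in depth between libraries could change every share given here.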
